A study of Homo sapiens with 12 samples.

Results

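Cholesterol metabolism was followed through 38 listed genes of cholesterol synthesis, uptake, intracellular transport, efflux and control by SREBP, the membrane-bound transcription factors that raise cholesterol synthesis. All 38 genes were found in the 3 deposited expression tables, and 36 of them reached a mean of at least 1 FPKM (fragments mapped, scaled to transcript length and library size) over 11 libraries. These 36 genes are described below, out of 11075 genes that passed the same limit and 23153 genes shared by the tables. They comprised 6 genes of acetyl unit supply and the mevalonate steps, 3 of the isoprenoid steps, 11 of the sterol steps, 5 of SREBP control, 2 of uptake, 7 of intracellular transport and storage, and 2 that encode the LXR receptors. Each of the 36 was above 1 FPKM in every library, and the lowest single value was 1.41 FPKM, for NR1H3. NR1H3 also lay nearest the limit, with a mean of 3.31 FPKM, and the 2 genes outside it, ABCG1 and ABCA1, had means of 0.252 and 0.0267 FPKM.

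The cells were K562, an established human leukemia line with erythroid features, and their poly(A) RNA was sequenced after exposure to fatty acids bound to albumin. The saturated acid was palmitate, and palmitoleate has the same chain length with 1 double bond. According to the series' design text, RNA of 3 biological replicates was pooled for each library, so a group had 1 library in an experiment. Some library names, which carry a span of only 2 sample numbers, may point to smaller pools. Experiment 1 held wild-type cells given palmitoleate, wild-type cells given palmitate and untreated wild-type cells. Experiment 2 held cells with a knockout of GPAT4 (an enzyme that starts glycerolipid synthesis) given palmitate, wild-type cells given palmitate together with palmitoleate, wild-type cells given palmitate and untreated wild-type cells. Experiment 3 held cells with a knockdown of RNF213 (a ubiquitin ligase) given palmitate, the same knockdown cells untreated, wild-type cells given palmitate and untreated wild-type cells. Palmitate was given at 0.2 mM. The treatment lasted 20 h according to the labels and 16 h according to legends inside the tables of experiments 2 and 3. The dose of palmitoleate given alone, the number of knockout or knockdown clones and the means of gene disruption are not given in the sources used here. The labels also list untreated GPAT4 knockout cells, which are not analysed here because the library names in the table of experiment 2 did not match their label. Wild-type palmitate and untreated cells thus had 3 libraries each, 1 per experiment, and each remaining group had 1.

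Cells make cholesterol from acetyl units by way of mevalonate, isoprenoid diphosphates, squalene and lanosterol. SREBP proteins are held in the endoplasmic reticulum by INSIG proteins while sterols are plentiful. When sterols fall, SCAP escorts SREBP to the Golgi, where proteases free the part that enters the nucleus and activates genes of cholesterol synthesis and uptake. Excess sterol acts in the other direction through the oxysterol receptors LXR, which switch on the efflux pumps ABCA1 and ABCG1. Fatty acids bear on the same system, since unsaturated fatty acids are known to lower the activity of the SREBP encoded by SREBF1 in cultured cells.

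The deposited values give FPKM and no read counts, so the depth of a library is unknown. Summed FPKM were 612355 to 821188 per library, and 10495 to 11108 genes per library reached 1 FPKM. GPAT4, listed as AGPAT6, was at 8.77 FPKM in knockout cells and 20.0 FPKM in wild-type cells under palmitate. RNF213 was at 1.39 FPKM in knockdown cells and 1.96 FPKM in wild-type cells without fatty acid, and at 1.54 FPKM in knockdown cells and 3.08 FPKM in wild-type cells with palmitate. All 11 erythroid genes listed as K562 markers reached a mean of 1 FPKM, with summed levels of 5146 to 18240 FPKM. Of the defining genes of other cell types, CD3D (T cells), LYZ (monocytes), EPCAM (epithelium) and COL1A2 (fibroblasts) reached that mean, and the listed markers of B cells, endothelium and hepatocytes did not.

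The 4 promoter stretches that follow belong to the 3 genes with the largest called palmitate responses, STARD4, HSD17B7 and MSMO1, and to SREBF2. SREBF2 was added after the search because its promoter held the sterol regulatory element, the site that SREBP binds. They are the 250 bases before the transcription start in RefSeq on GRCh38.p14, at chr5:111512536-111512785 on the minus strand for STARD4, chr1:162790452-162790701 on the plus strand for HSD17B7, chr4:165327419-165327668 on the plus strand for MSMO1 and chr22:41832855-41833104 on the plus strand for SREBF2. Capitals mark the NF-Y box CCAAT on either strand, ATTGG being its other strand, and the sterol regulatory element TCACNCCAC. NF-Y is a general factor that works beside SREBP at many sterol genes.
STARD4: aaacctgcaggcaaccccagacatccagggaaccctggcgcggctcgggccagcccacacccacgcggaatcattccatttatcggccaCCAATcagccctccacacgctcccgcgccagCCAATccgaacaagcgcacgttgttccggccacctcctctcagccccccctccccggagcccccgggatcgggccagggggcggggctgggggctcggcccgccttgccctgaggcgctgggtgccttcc
HSD17B7: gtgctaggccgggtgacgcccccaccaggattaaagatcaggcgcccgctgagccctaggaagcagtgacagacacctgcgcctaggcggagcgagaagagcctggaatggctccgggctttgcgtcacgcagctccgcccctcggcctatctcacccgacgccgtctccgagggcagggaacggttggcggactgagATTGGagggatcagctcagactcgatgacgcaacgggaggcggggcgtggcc
MSMO1: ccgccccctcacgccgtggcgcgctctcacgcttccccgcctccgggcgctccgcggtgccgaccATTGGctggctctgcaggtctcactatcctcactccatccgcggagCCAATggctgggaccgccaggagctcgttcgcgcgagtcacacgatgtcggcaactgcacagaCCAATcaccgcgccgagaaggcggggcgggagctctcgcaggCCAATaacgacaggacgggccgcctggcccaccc
SREBF2: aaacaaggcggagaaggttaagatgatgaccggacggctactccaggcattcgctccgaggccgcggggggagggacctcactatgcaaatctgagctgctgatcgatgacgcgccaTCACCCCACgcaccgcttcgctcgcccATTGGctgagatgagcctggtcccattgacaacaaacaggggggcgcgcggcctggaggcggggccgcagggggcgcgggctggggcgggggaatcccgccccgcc
Promoters of 34 of the 38 listed genes were matched, each searched on both strands over 300 bases, 250 before and 50 after the start. The sterol regulatory element in these letters was in 1 of the 34 (2.94%), SREBF2, which encodes the SREBP that mainly drives cholesterol genes, and in 1.15% of 27305 promoters. The NF-Y box was in 19 of 34 (55.9%), against 35.7% of all promoters and 37.9% of 7777 promoters of tested genes. MSMO1 held 4 NF-Y boxes, STARD4 held 2, and HSD17B7 held 1 in the printed stretch and another at position 9 after the start. CCACG, a part of an element of the endoplasmic reticulum stress response, was in 19 of 34 (55.9%). This stands against 37.9% of all promoters and 51.4% of those of tested genes. In SREBF2, CCACG overlaps the end of the sterol regulatory element. TGATGNAA, bound by CHOP and ATF factors, was in 0 of 34, against 3.67% of all promoters and 1.5% of those of tested genes. The DR4 element bound by LXR was in 0 of 34, against 0.0183% of all promoters. These matches describe letters in a window and were not tied to binding.

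Palmitate was associated with higher mRNA of a minority of the cholesterol genes in wild-type cells, spread over isoprenoid and sterol synthesis and intracellular cholesterol transport. STARD4, HSD17B7, MSMO1, NPC1, CYP51A1 and FDPS rose, and no member fell, by limma on the 3 within-experiment ratios with Benjamini-Hochberg adjustment over all tested genes at an adjusted p under 0.05. Those 6 of 36 stand beside 6.79% of all tested genes called higher, and the 0 of 36 beside 4.22% called lower. At an unadjusted p under 0.05, limma gave 16 members higher (15.2% of tested genes) and 2 lower (17.2%). The median ratio of the 36 genes was 0.47 on the log2(FPKM + 1) scale, against -0.06 for all tested genes, and in experiments 1, 2 and 3 it was 0.41, 0.65 and 0.23. Palmitate was above untreated in all 3 experiments for 17 of 36 members, against 25.9% of tested genes, and below it in all 3 for 4 members, against 29.6% of tested genes. In bulk RNA, a change in the make-up of the culture and a change of RNA per cell cannot be told apart.

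**Figure D1:**
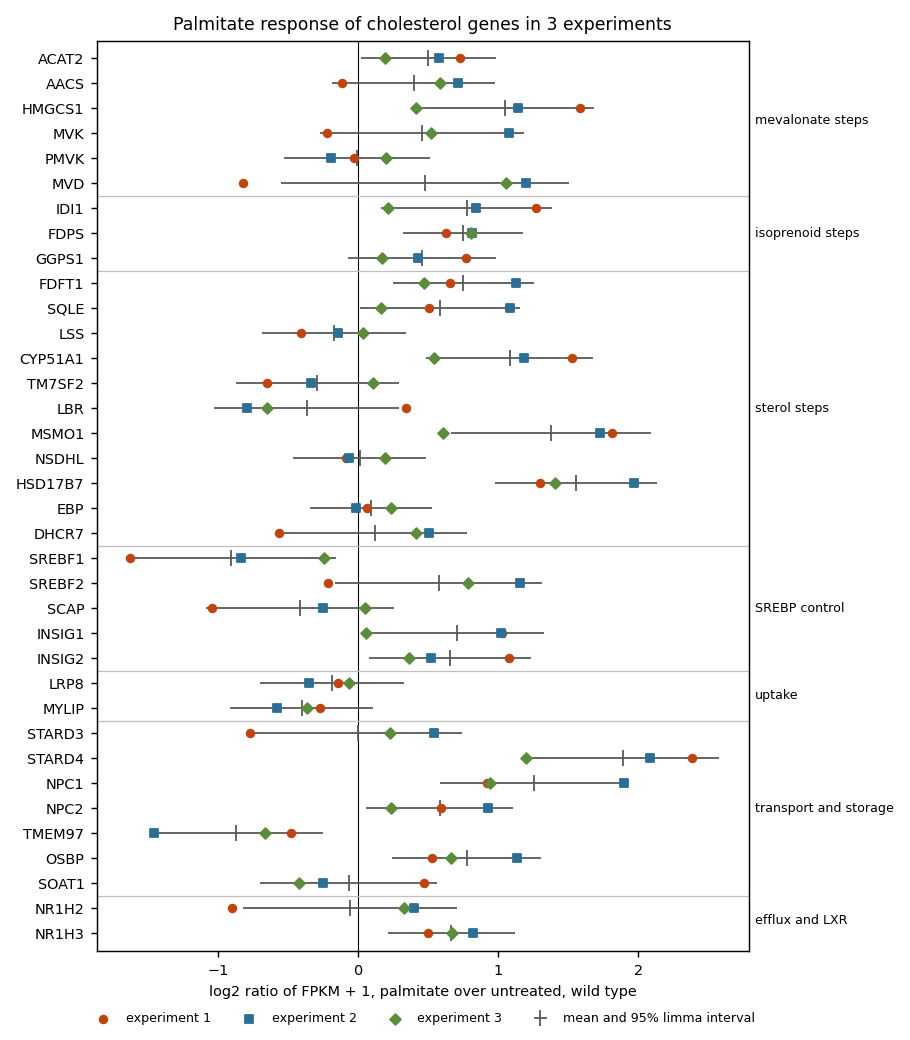
Log2 ratio of FPKM + 1, palmitate over untreated, in wild-type cells for the 36 cholesterol genes, grouped by role. Points are single experiments, and the tick and bar are the limma mean and its 95% interval over 3 experiments. STARD4 has the highest mean, 1.89, and SREBF1 the lowest, -0.91. MVD lies below 0 in experiment 1 and above 0 in experiments 2 and 3.

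Among the mevalonate genes, HMGCS1, the cytosolic synthase that makes HMG-CoA, had the largest ratio. It had 228, 95.4 and 159.6 FPKM with palmitate in experiments 1, 2 and 3, against 75.5, 42.7 and 119.5 FPKM untreated. Palmitate was thus higher in each experiment, and the mean log2 ratio of 1.05 ± 0.26 (SE, n = 3) had an adjusted p of 0.0555 by limma. Here and below, the SE is that of the limma fit, which also draws on the spread of other genes. It is not the SE of the 3 ratios alone. MVD, the mevalonate diphosphate decarboxylase, had 15.4, 70.8 and 42.9 FPKM with palmitate, against 27.9, 30.2 and 20.1 FPKM untreated, so its direction differed between experiment 1 and the others. MVK, mevalonate kinase, showed the same split, with log2 ratios of -0.22, 1.08 and 0.52. ACAT2, a cytosolic thiolase that supplies acetoacetyl-CoA, had ratios of 0.73, 0.58 and 0.19, and AACS, which activates acetoacetate, had -0.11, 0.71 and 0.58. PMVK, phosphomevalonate kinase, stayed within 0.20 of 0 in each experiment. None of the 6 passed the test, and limma gave 2 higher and 0 lower at an unadjusted p under 0.05.

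The 3 isoprenoid enzymes were above untreated in each experiment. FDPS, which makes farnesyl diphosphate, had 197, 214 and 224 FPKM with palmitate in experiments 1, 2 and 3, against 127, 121 and 128 FPKM untreated. Its 3 ratios were the closest together among the called members, and it rose by 0.75 ± 0.18 (SE, n = 3, limma adjusted p = 0.0486). FDPS also had the highest mean level of the 36 genes, 168 FPKM. IDI1, the isopentenyl diphosphate isomerase, had 122, 69.8 and 122 FPKM with palmitate, against 49.8, 38.6 and 105.3 FPKM untreated, with a mean log2 ratio of 0.78 and an adjusted p of 0.0943. GGPS1, which makes geranylgeranyl diphosphate, had a ratio of 0.45 (adjusted p = 0.203).

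Of the 11 sterol-step genes, 3 rose and 0 fell, with 5 higher and 0 lower at an unadjusted p under 0.05 by limma. HSD17B7, a ketosteroid reductase of the C4 demethylation complex, had 19.3, 21.2 and 19.9 FPKM with palmitate, against 7.25, 4.67 and 6.90 FPKM untreated. It rose by 1.56 ± 0.24 (SE, n = 3, limma adjusted p = 0.0226), or 2.94-fold in FPKM + 1. MSMO1, the methylsterol oxidase of the same complex, had 59.6, 35.9 and 52.4 FPKM with palmitate, against 16.3, 10.2 and 34.1 FPKM untreated. Its rise of 1.38 ± 0.29 (SE, n = 3, limma adjusted p = 0.0404) came with a smaller ratio in experiment 3, 0.60, than in experiments 1 and 2, 1.81 and 1.73. CYP51A1, the lanosterol demethylase, had 120.3, 68.8 and 94.0 FPKM with palmitate, against 41.1, 29.8 and 64.2 FPKM untreated. Higher in each experiment, it rose by 1.08 ± 0.24 (SE, n = 3, limma adjusted p = 0.0452).

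The other 8 sterol-step genes did not pass, and they were not of 1 direction. FDFT1, squalene synthase, and SQLE, squalene epoxidase, were above untreated in all 3 experiments, with mean log2 ratios of 0.75 (adjusted p = 0.0678) and 0.58 (adjusted p = 0.148). LSS, lanosterol synthase, had 12.6, 13.98 and 22.8 FPKM with palmitate, against 17.1, 15.6 and 22.2 FPKM untreated. DHCR7, which carries out the last step to cholesterol in one branch, had a ratio of 0.12, and NSDHL, the dehydrogenase that acts between MSMO1 and HSD17B7, had 0.01. EBP, the sterol isomerase, had 0.09. TM7SF2 and LBR, both sterol reductases acting on the same bond, had -0.29 and -0.37. HSD17B7 and NSDHL, enzymes of 1 complex, thus had mean ratios of 1.56 and 0.01, and the difference between them was not tested.

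Genes of SREBP control differed in sign. SREBF1, which encodes the SREBP that mainly drives fatty acid genes, had 7.49, 14.4 and 11.6 FPKM with palmitate, against 25.3, 26.5 and 13.99 FPKM untreated. It was lower in each experiment, with a mean log2 ratio of -0.91 ± 0.31 (SE, n = 3) and an adjusted p of 0.104. SREBF2 had 23.8, 51.8 and 32.3 FPKM with palmitate, against 27.9, 22.7 and 18.3 FPKM untreated, so it was lower in experiment 1 and higher in experiments 2 and 3 (mean 0.57, adjusted p = 0.242). INSIG1, an SREBP target that retains SCAP, had 103, 90.6 and 124 FPKM with palmitate, against 50.1, 44.1 and 119 FPKM untreated. Its ratios were 1.03, 1.02 and 0.06, near 0 in experiment 3 alone (mean 0.70, adjusted p = 0.122). INSIG2, its relative that is less dependent on SREBP, had a ratio of 0.65 (adjusted p = 0.120), and SCAP had -0.42 (adjusted p = 0.336).

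Both uptake genes were lower with palmitate in each experiment without passing the test. LRP8, a member of the LDL receptor family, had a mean log2 ratio of -0.18, and MYLIP, the ubiquitin ligase that targets LDL receptors for degradation, had -0.41 (adjusted p = 0.574 and 0.232).

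Intracellular transport held the largest response. STARD4, a soluble carrier that moves cholesterol between membranes, had 75.9, 32.5 and 37.04 FPKM with palmitate in experiments 1, 2 and 3, against 13.7, 6.89 and 15.6 FPKM untreated. It rose by 1.89 ± 0.28 (SE, n = 3, limma adjusted p = 0.0212), or 3.71-fold in FPKM + 1. NPC1, the lysosomal membrane protein that exports cholesterol, had 16.7, 39.3 and 13.99 FPKM with palmitate, against 8.33, 9.79 and 6.81 FPKM untreated. The rise of 1.26 ± 0.27 (SE, n = 3, limma adjusted p = 0.0429) was largest in experiment 2. NPC2, its soluble partner, had 66.5, 63.9 and 60.3 FPKM with palmitate, against 43.8, 33.1 and 51.2 FPKM untreated, and OSBP, which exchanges cholesterol for a phosphoinositide at the Golgi, had 30.9, 44.05 and 29.9 FPKM with palmitate, against 21.1, 19.5 and 18.5 FPKM untreated. Both were higher in each experiment and did not pass, with mean log2 ratios of 0.58 (adjusted p = 0.124) and 0.78 (adjusted p = 0.0701). TMEM97, a sterol-responsive membrane protein that binds NPC1, had 41.8, 14.6 and 26.4 FPKM with palmitate, against 58.7, 41.8 and 42.5 FPKM untreated. It was lower in each experiment, opposite in sign to NPC1, at -0.87 ± 0.25 (SE, n = 3, adjusted p = 0.0760). STARD3, a late endosomal cholesterol binder, and SOAT1, which esterifies cholesterol for storage, had mean ratios of -0.001 and -0.07 with opposite signs between experiments.

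On the efflux side, NR1H3 (LXR alpha) had 3.47, 6.45 and 2.85 FPKM with palmitate, against 2.18, 3.21 and 1.41 FPKM untreated, a log2 ratio of 0.66 (adjusted p = 0.0696). NR1H2 (LXR beta) had -0.06. ABCG1, a pump that LXR activates, was listed at 0.0882, 2.41 and 0.184 FPKM with palmitate, against 0.0222, 0.0116 and 0.0198 FPKM untreated, and at or below 0.018 FPKM in the other 5 libraries. A level above 1 FPKM was thus seen in 1 library, wild type with palmitate in experiment 2. ABCA1, the other pump, was at most 0.124 FPKM in any library, also in that one. Neither entered the test.

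Without experiment 1 or without experiment 3, limma called 0 of all 11075 genes, members included, so those fits say nothing particular about the members. At an unadjusted p under 0.05, limma gave 15 and 9 members higher. The share of all genes at that limit is not given here, so these counts are not read further. The log2 ratios were then 1.64 and 2.23 for STARD4, against 1.89 over 3 experiments, and 1.69 and 1.63 for HSD17B7, against 1.56. Without experiment 2, 5 members were called, STARD4, HSD17B7, MSMO1, CYP51A1 and HMGCS1, among 591 genes called higher. The smallest adjusted p of that limma fit was 7.2e-70, against 0.00807 over 3 experiments. Its calls thus cannot be read like those over 3 experiments. When the libraries were not matched by experiment, 1 member, HSD17B7, was called among 262 genes called higher. In the tables, STARD4, FDPS, NPC1 and TMEM97 lie in hg19 loci that also hold other genes, chr5:110834021-111312628 for STARD4, chr1:155278538-155300909 for FDPS, chr18:21083461-21166581 for NPC1 and chr17:26646120-26662495 for TMEM97. Other members may share a locus in the same way, such as SREBF1, listed at chr17:17584786-17740325. Whether counting used strand is not given in the sources used here.

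The palmitate ratio moved with the base composition of the transcripts in experiment 1. Across 9637 genes with a known transcript, its Spearman correlation with GC content was -0.63 in experiment 1, -0.015 in experiment 2 and 0.15 in experiment 3, and across the 36 members it was -0.82, -0.28 and -0.01. Genes share their libraries, so these are descriptions. The members ranged from 34.4% GC (STARD4) to 64.2% GC (TM7SF2), and the 6 called members from 34.4% to 56.0%. With the trend on GC content removed from each ratio, 13 members were called higher (15.2% of 9637 genes) and SREBF1 and TMEM97 were called lower (12.2%). All 6 genes named above kept their call, and the additions were HMGCS1, IDI1, FDFT1, SREBF2, INSIG2, OSBP and NR1H3. The experiment 1 ratio of MVD was then 0.08 and that of SREBF2 0.38, against -0.82 and -0.22 as measured, and that of SREBF1 was -0.75, against -1.63. What set the GC trend was not tested.

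**Figure D2:**
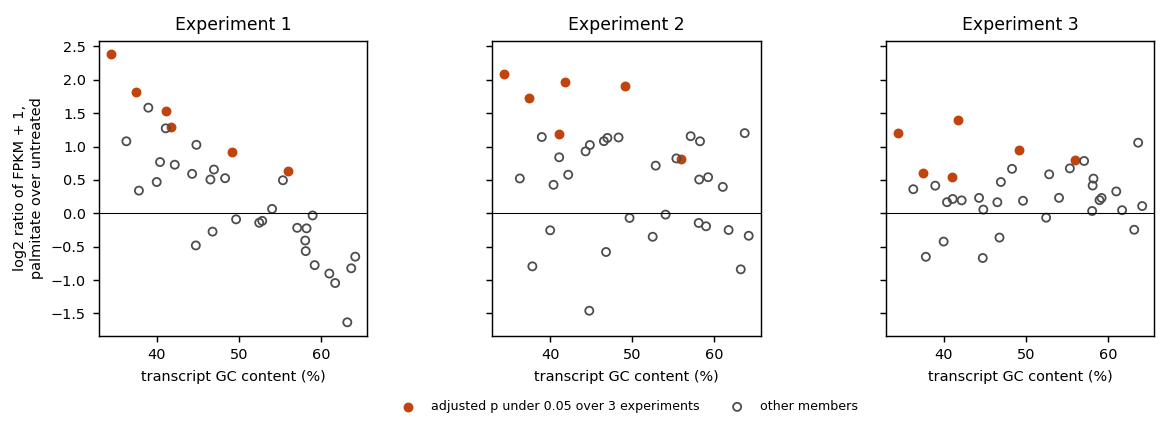
Log2 ratio of FPKM + 1, palmitate over untreated in wild-type cells, against transcript GC content in percent for the 36 cholesterol genes, 1 panel per experiment. Filled points are the 6 genes called over 3 experiments. The points slope down in experiment 1 (Spearman correlation -0.82) and not in experiment 3 (-0.01).

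With palmitoleate alone, the 6 genes that rose with palmitate had log2 ratios to untreated of -0.38 (HSD17B7) to 0.17 (STARD4), and a set of other members was lower than in untreated cells. Experiment 1 had 1 library per group, so these differences have no replicate check. Intervals use the spread of the wild-type palmitate ratios between experiments, on the assumption that single libraries vary alike. The median log2 ratio of palmitoleate over untreated was -0.27 for the 36 members and 0.01 for all tested genes. Below 0 were 27 members, against 5359 of 11075 tested genes. At least 2-fold lower were 8 members, against 6.6% of tested genes, and 0 were at least 2-fold higher, against 0.605%. No adjusted p fell under 0.05 among the members, and at an unadjusted p under 0.05, where the 95% interval leaves out 0, limma gave 0 higher (0.542% of tested genes) and 6 lower (2.06%).

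Among the 8, MVD had 5.79 FPKM with palmitoleate, 15.4 with palmitate and 27.9 untreated, a log2 ratio of palmitoleate over untreated of -2.09 (95% interval -3.87 to -0.31). SREBF1 had 6.52 FPKM with palmitoleate, 7.49 with palmitate and 25.3 untreated, a ratio of -1.81 (-3.10 to -0.51), so both fatty acids lay far below untreated. DHCR7 had 14.1 FPKM with palmitoleate, 34.2 with palmitate and 51.1 untreated, a ratio of -1.79 (-2.93 to -0.65). These 3 genes, a mevalonate enzyme, a transcription factor and a late sterol reductase, were lowest with palmitoleate and highest untreated, as were LSS, MVK, SREBF2 and SCAP. With the GC trend removed, palmitate over untreated in experiment 1 was 0.08 for MVD, 0.08 for DHCR7 and -0.75 for SREBF1. It was 0.24 for LSS, 0.43 for MVK, 0.38 for SREBF2 and -0.22 for SCAP. Of these genes, only SREBF1 and SCAP then had palmitate below untreated. INSIG1 had another order, with 20.8 FPKM with palmitoleate, 103 with palmitate and 50.1 untreated, a ratio of -1.23 (-2.31 to -0.14). The rest were LSS at -1.46, MVK at -1.33, SREBF2 at -1.15 and SCAP at -1.11. STARD4, MSMO1 and CYP51A1 differed from untreated by 0.17, 0.13 and 0.05, with intervals that held 0. With the GC trend removed, these ratios were -0.30, -0.26 and -0.245.

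The palmitoleate ratio also moved with GC content, at a Spearman correlation of -0.76 across 9637 genes and -0.72 across the 36 members. With that trend removed, 4 of the 8 were still at least 2-fold lower, against 0.685% of genes, namely INSIG1 (-1.36), MVD (-1.31), DHCR7 (-1.21) and SREBF1 (-1.04). The rest of the 8 were LSS (-0.89), MVK (-0.74), SREBF2 (-0.63) and SCAP (-0.38). The genes called higher with palmitate ranged from -0.65 (HSD17B7) to 0.335 (FDPS). The median of the members was then -0.28.

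Set against palmitate in the same experiment, palmitoleate gave lower levels for 33 of 36 members, against 5209 of 11075 tested genes. The median log2 ratio was -0.65 for the members, against 0.02 for all tested genes. At least 2-fold lower were 12 members, against 4.66% of tested genes, and 0 were at least 2-fold higher, against 1.25%. INSIG1 led at -2.25 (-3.34 to -1.17), followed by STARD4 at -2.22 (-3.41 to -1.03), whose level was 15.5 FPKM with palmitoleate and 75.9 FPKM with palmitate. HMGCS1 had 62.6 FPKM with palmitoleate and 228 FPKM with palmitate, a ratio of -1.85 (-2.96 to -0.74). The remaining 9 were MSMO1 and HSD17B7 at -1.68, IDI1 at -1.49, CYP51A1 at -1.48, MVD at -1.27, DHCR7 at -1.22, NPC1 at -1.12, MVK at -1.10 and LSS at -1.06. STARD4, MSMO1, HSD17B7, CYP51A1 and NPC1 were called higher partly through this same wild-type palmitate library. Part of their lower ratio to it may thus be built in by the choice of genes. The Spearman correlation of this ratio with GC content was 0.13 across all genes and 0.31 across the 36 members. With the trend removed, 13 members were at least 2-fold lower, against 4.99%. No member passed at an adjusted p under 0.05 by limma, and 12 were lower (4.14% of tested genes) and 0 higher (0.993%) at an unadjusted p under 0.05. The doses of the 2 fatty acids may differ.

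**Figure D3:**
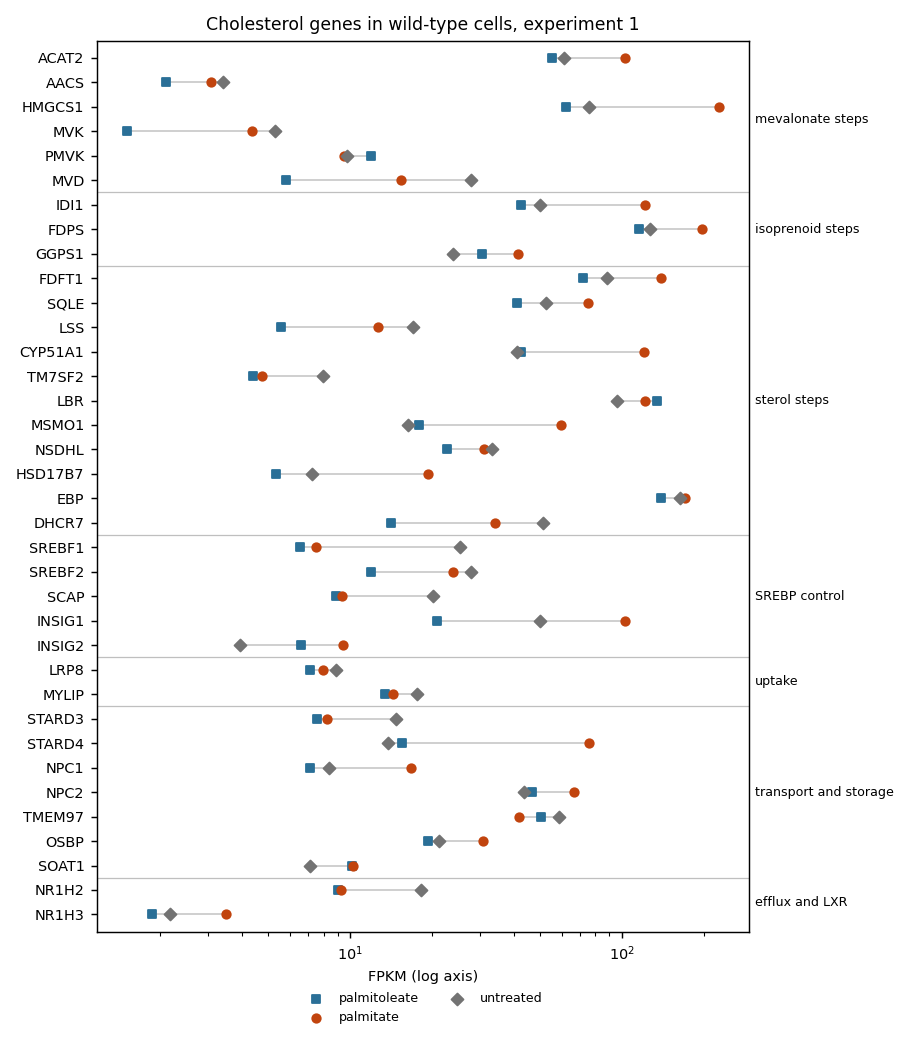
FPKM of the 36 cholesterol genes on a log axis in experiment 1, for wild-type cells with palmitoleate, with palmitate and untreated, 1 library each. Palmitoleate lies below palmitate for 33 of 36 genes, against 5209 of 11075 tested genes. INSIG1, at 20.8 and 103 FPKM, shows the largest log2 ratio between them.

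When palmitoleate was added to palmitate in experiment 2, 5 of 36 members were at least 2-fold lower than with palmitate alone, against 10.2% of tested genes, and 2 were at least 2-fold higher, against 9.22%, both shares near the background. NPC1 had 14.6 FPKM with both fatty acids, 39.3 with palmitate and 9.79 untreated, a log2 ratio of both over palmitate of -1.37 (-2.53 to -0.21). STARD4 had 12.4 FPKM with both, 32.5 with palmitate and 6.89 untreated, a ratio of -1.32 (-2.51 to -0.13). HSD17B7 had 9.08 FPKM with both, 21.2 with palmitate and 4.67 untreated, a ratio of -1.14 (-2.14 to -0.14). All 3 thus lay between palmitate and untreated. These 3 genes were called higher partly through this same wild-type palmitate library, so part of a lower ratio to it may be built in by the choice of genes. NPC2 at -1.11 and OSBP at -1.10 completed the 5 lower members. TMEM97, with 34.6 FPKM with both, 14.6 with palmitate and 41.8 untreated, was higher by 1.19 (0.12 to 2.27), and LBR by 1.02. The median over members was -0.28, against 0.05 for all tested genes, and no adjusted p was under 0.05, with 1 member higher (8.47% of tested genes) and 6 lower (9.33%) at an unadjusted p under 0.05 by limma.

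Relative to untreated cells, both fatty acids together left a median log2 ratio of 0.28, against -0.02 for all tested genes. Above 0 were 26 of 36 members, against 46.2% of tested genes. MSMO1, with 27.6 FPKM with both and 10.2 FPKM untreated, was higher by 1.36 (0.12 to 2.60), and MVK, with 12.5 FPKM with both and 5.35 FPKM untreated, by 1.09 (-0.18 to 2.35). They were the 2 members at least 2-fold higher, against 1.12% of tested genes, and 0 were at least 2-fold lower, against 0.578%. By limma, MSMO1 was the 1 member higher at an unadjusted p under 0.05 (0.975% of tested genes), 0 were lower (0.352%), and 0 passed after adjustment. INSIG1 had 87.7 FPKM with both, 90.6 with palmitate and 44.1 untreated, a ratio to palmitate of -0.05 (-1.13 to 1.04). In experiment 1, the same gene had been lowest with palmitoleate alone. The 2 experiments were scaled separately and were not compared by test.

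**Figure D4:**
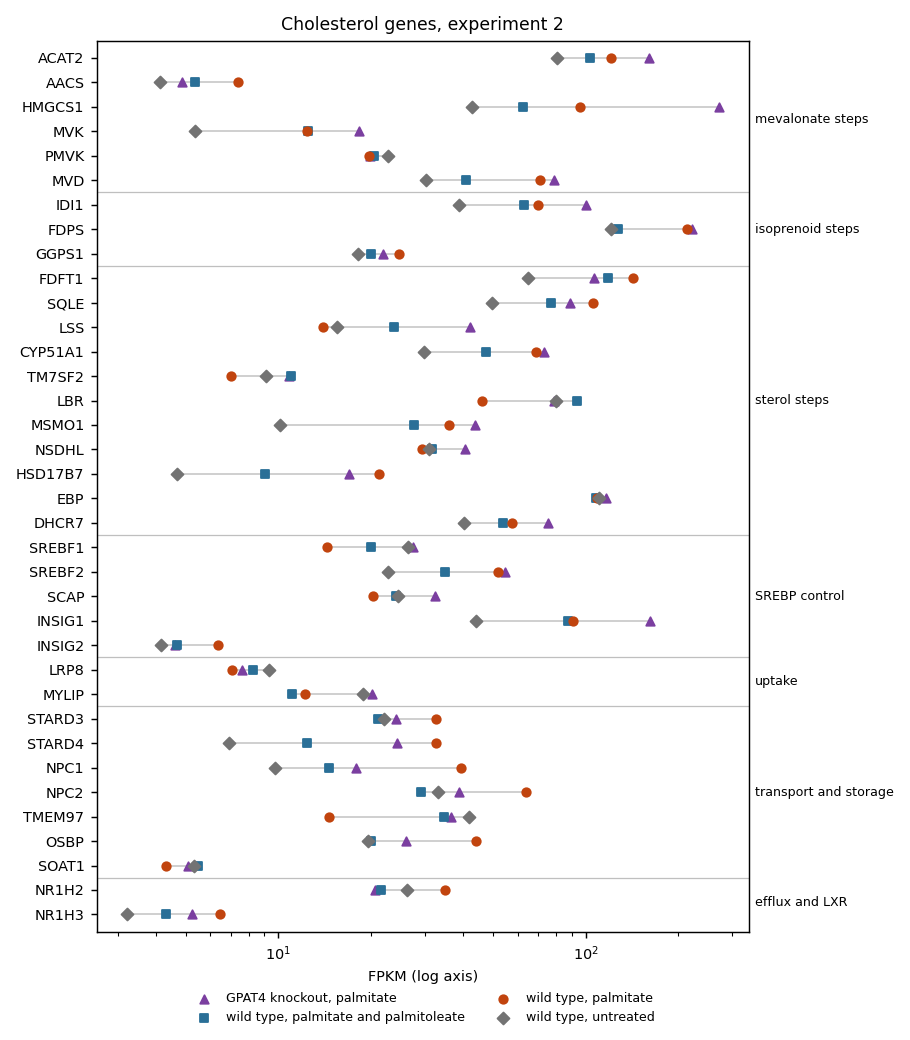
FPKM of the 36 cholesterol genes on a log axis in experiment 2, for GPAT4 knockout cells with palmitate, wild-type cells with both fatty acids, wild-type cells with palmitate and untreated wild-type cells, 1 library each. HMGCS1 stands at 271 FPKM in the knockout and 95.4 FPKM in wild type with palmitate, and NPC1 at 17.8 and 39.3 FPKM.

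Under palmitate, 3 of 36 members were at least 2-fold higher in GPAT4 knockout cells than in wild-type cells, against 7% of tested genes, and 1 was at least 2-fold lower, against 8.06%, so the members did not stand out from the background. HMGCS1 had 271 FPKM in knockout cells and 95.4 FPKM in wild-type cells, a log2 ratio of 1.50 (0.39 to 2.61). LSS had 42.1 FPKM in knockout cells and 13.98 FPKM in wild-type cells, a ratio of 1.53 (0.63 to 2.42). TMEM97 had 36.5 FPKM in knockout cells and 14.6 FPKM in wild-type cells, a ratio of 1.27 (0.19 to 2.34). Their levels in the knockout cells may be set beside untreated wild-type cells of that experiment, which had 42.7 FPKM of HMGCS1, 15.6 of LSS and 41.8 of TMEM97, so HMGCS1 and LSS lay above the palmitate and untreated wild-type libraries and TMEM97 between them. NPC1 had 17.8 FPKM in knockout cells and 39.3 FPKM in wild-type cells, a ratio of -1.10 (-2.26 to 0.07), the 1 member at least 2-fold lower, with an interval that held 0. The same wild-type palmitate library was the denominator for both fatty acids over palmitate, so the 2 comparisons are not independent. NPC1 was also called higher with palmitate partly through that library, so part of its lower ratio may be built in. In experiments 1, 2 and 3, wild-type palmitate over untreated was -0.48, -1.46 and -0.67 for TMEM97. For NPC1 it was 0.92, 1.9 and 0.94.

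SREBF1 and INSIG1 were higher in the knockout cells by 0.88 and 0.83, with 27.4 FPKM in knockout and 14.4 FPKM in wild-type cells for SREBF1 and 162 FPKM in knockout and 90.6 FPKM in wild-type cells for INSIG1, and both intervals held 0. OSBP, NR1H2 and NPC2 had ratios of -0.74, -0.73 and -0.71, also with intervals that held 0. The median over members was 0.10, against 0.05 for all tested genes. No member passed at an adjusted p under 0.05 by limma, and 3 were higher (6.22% of tested genes) and 0 lower (6.93%) at an unadjusted p under 0.05. Since untreated knockout cells were not used here, a standing difference of the knockout cells and a different response to palmitate cannot be told apart.

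No cholesterol gene differed by 2-fold between the single libraries of RNF213 knockdown and wild-type cells. Intervals can hold larger differences, as for TM7SF2 without fatty acid, at 0.65 (-0.36 to 1.65). Knockdown over wild type gave a median log2 ratio of 0.04 without fatty acid and -0.03 with palmitate, against 0.03 and 0.04 for all tested genes. Without fatty acid, 0 of 36 members were at least 2-fold higher (0.46% of tested genes) and 0 at least 2-fold lower (0.379%), and with palmitate 0 were higher (0.551%) and 0 lower (0.804%). By limma, 0 members had an unadjusted p under 0.05 in either direction, without fatty acid (0.37% of tested genes higher, 0.253% lower) or with palmitate (0.388% higher, 0.397% lower). The ratio without fatty acid rose with GC content across genes (0.63) and members (0.77), in the range from -0.37 (STARD4) to 0.65 (TM7SF2).

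The response to palmitate within the knockdown cells again had STARD4 in front, with 35.3 FPKM with palmitate and 11.8 FPKM untreated, a log2 ratio of 1.50 (0.32 to 2.69). It was the 1 member at least 2-fold higher, against 2.74% of tested genes, and 0 were at least 2-fold lower, against 0.704%. HSD17B7 had 13.1 FPKM with palmitate and 6.62 FPKM untreated (0.89), and FDPS had 239 FPKM with palmitate and 132 FPKM untreated (0.86, interval 0.12 to 1.60). STARD4 and FDPS were the 2 members above 0 at an unadjusted p under 0.05 by limma (2.22% of tested genes), 0 were below 0 (0.632%), and 0 members passed after adjustment.

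The difference between the responses, knockdown minus wild type, was tested directly. It had a median of -0.20 over the members and 0.00 over all tested genes, and it ranged from -0.59 for TM7SF2 (-2.01 to 0.83) to 0.36 for TMEM97 (-1.16 to 1.87). For STARD4 it was 0.30 (-1.38 to 1.99) and for HSD17B7 -0.51 (-1.93 to 0.90). All 36 intervals held 0, so limma gave 0 members above 0 (0.271% of tested genes) and 0 below 0 (0.28%) at an unadjusted p under 0.05, but the intervals are wide enough to hold differences of more than 2-fold. The difference also moved with GC content across genes (-0.46) and members (-0.61), and with that trend removed its median over the members was -0.09.

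**Figure D5:**
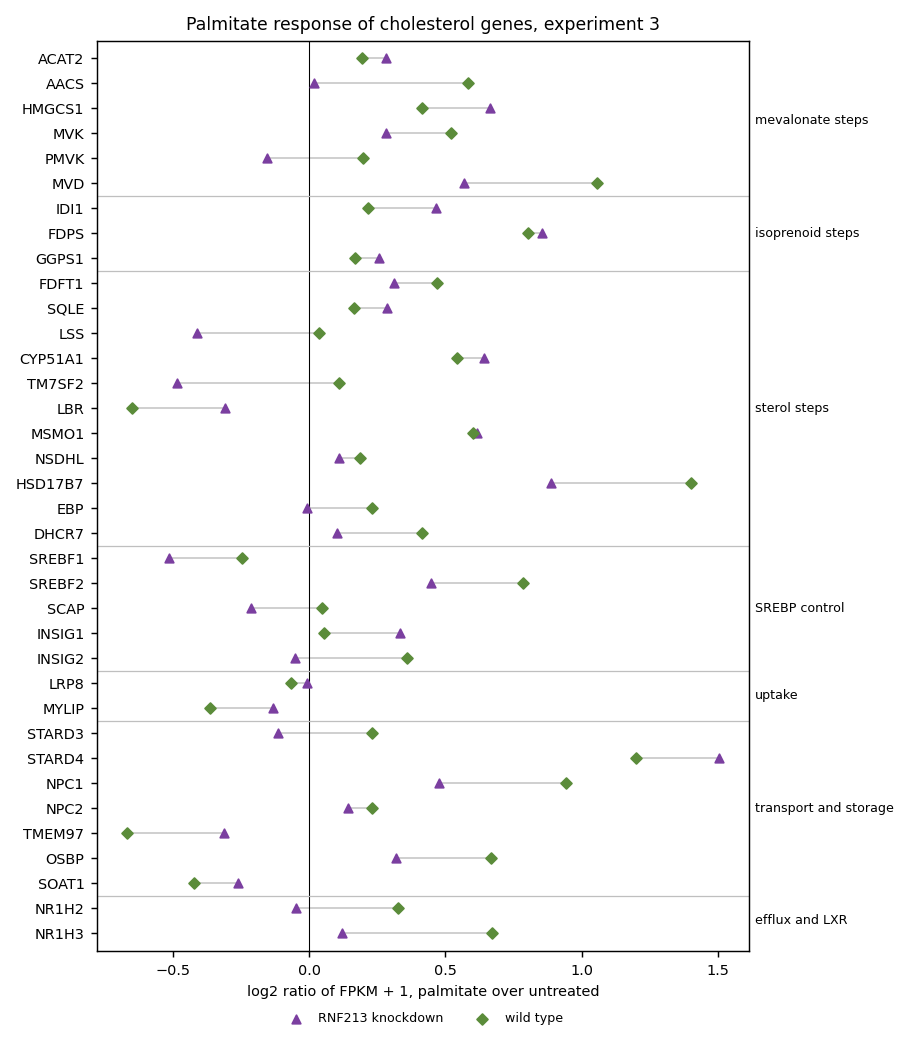
Log2 ratio of FPKM + 1, palmitate over untreated, for the 36 cholesterol genes in experiment 3, in RNF213 knockdown cells (triangles) and wild-type cells (diamonds), 1 library per group. STARD4 is farthest right in knockdown cells, at 1.50, against 1.20 in wild-type cells, and TM7SF2 shows the largest distance between the cell types.

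A further 53 genes of the pathway, among them other oxysterol-binding proteins, sterol-site proteases, cholesterol esterases and side branches of mevalonate use, were read in the wild-type palmitate comparison. Of these, 38 reached a mean of 1 FPKM, and their median log2 ratio was -0.14, against 0.47 for the 36 members. OSBP2, a relative of OSBP, had 2.57, 1.75 and 1.45 FPKM with palmitate in experiments 1, 2 and 3, against 15.8, 14.5 and 4.95 FPKM untreated, and fell by 2.01 ± 0.29 (SE, n = 3, limma adjusted p = 0.0201). OSBP itself was higher in each experiment, so the 2 relatives had opposite signs. PDSS1, which makes the side chain of coenzyme Q, had a ratio of -1.05 and did not pass (adjusted p = 0.0609).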

How the data were processed

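RNA of 3 biological replicates was pooled per library, per the series' design text, and sequenced from stranded poly(A) libraries, per the labels. The submitters' processing notes name TopHat2 for mapping to hg19 and Cuffdiff for quantification, whose versions are not given in the sources used here. FPKM is the unit of the deposited values, which the authors had scaled within the table of each experiment, so ratios were formed only within a table. The 2 library names outside the labels were not used. Left out were genes whose symbols had become dates, that were marked as failed, or whose repeated listings differed by a relative difference over 0.01.

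Ratios of log2(FPKM + 1), with a pseudocount of 1, were computed for 11075 genes whose mean reached 1 FPKM. A test of the 3 wild-type palmitate ratios used limma (version 3.58.1 under R 4.3.3, empirical Bayes, intensity trend, Benjamini-Hochberg over all tested genes, adjusted p under 0.05). It was checked on simulated ratios with larger shifts than those of the called members, so calls of the members' size were not checked. This fit treats the experiment as a block, since untreated and palmitate libraries of 1 experiment deviated together (r of 0.46, 0.63 and 0.70, against -0.53 to 0.01 between experiments). Pools were 1 per group and experiment, so p-values measure the spread between experiments. Each SE given with n = 3 is the limma SE, in which the spread of a gene is moderated by that of other genes. Single-library ratios carry 95% limma intervals from that spread (degrees of freedom: 2 residual, 4.02 prior). GC content came from the longest transcript in a GRCh37 annotation, for 87% of tested genes, and its trend was removed with lowess (window of 0.3). Promoters came from RefSeq on GRCh38.p14.

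All 38 members are named. In each comparison, values are given for called members or those with the largest ratios, and for other pathway genes among the 4 with the largest palmitate ratio, of which some are not reported here. Members, lists and tests were chosen with earlier results of these data known.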

Additional observations from a re-analysis of the deposited data

How the results depend on the processing

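The count of 6 members called higher with palmitate in wild-type cells stood beside 752 of all genes. It stayed at 6 with a pseudocount of 0.1 (727 of all genes) and with a mean of at least 5 FPKM (34 members tested, 551 of all genes). It was 5 without the intensity trend (722 of all genes) and 7 with ratios centred on their median (983 of all genes). It was 13 with the GC trend removed (15.2% of genes) and 11 without small RNA and SNAR genes (11.3%), and the count called lower, 0 as reported, was 2 under each of these settings (12.2% and 11.1% of genes). Without a filter on low values limma called 0 of all genes, and 11 members were higher at an unadjusted p under 0.05. The share of all genes at that limit is not given here. With no replicate block, that is without pairing libraries by experiment, limma called 1 higher and 0 lower, beside 262 and 52 of all genes. Leaving out each experiment gave 0 to 5 higher and 0 lower, the 0 higher being in fits that called 0 of all genes. The 5 came without experiment 2, in a fit whose calls cannot be read like those over 3 experiments. The cause of these changes was not tested. For single members, 9 gained a call with the GC trend removed and 7 without small RNA and SNAR genes, and 5 lost theirs with no replicate block. Of the calls named in the text none changed sign under these settings. Every median of a single-library comparison moved by less than 0.208, the SD of the median member ratio over 3 experiments, with a pseudocount of 0.1, centred ratios or the GC trend removed. Read depth is unknown, so no counting error could be given.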
